A study of Mus musculus with 12 samples.

Results

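The 10 apolipoprotein transcripts described here are Apoa1, Apoa2, Apoa4, Apoa5, Apob, Apoc1, Apoc3, Apoe, Apom and Apoh. They were selected by gene symbol with no threshold on their values, and all 10 were listed among the 22252 to 22273 named entries of every library. RNA-seq had been carried out on liver, gastrocnemius muscle and gonadal white adipose tissue (WAT) of male C57BL/6J mice with both alleles of the glucocorticoid receptor gene, Nr3c1, floxed. GRf/f mice carried no Cre, and GRmKO mice carried a Cre transgene under the skeletal actin (Acta1) promoter, which removes the receptor from muscle fibres and leaves it in liver and fat. Treatment began at 8 weeks of age and lasted 4 weeks, with CORT (corticosterone, the glucocorticoid that rodents chiefly secrete) given at 100 µg/mL in drinking water that held 1% ethanol, or with 1% ethanol alone (vehicle). Each of the 12 combinations of tissue, genotype and treatment was 1 library made from the pooled RNA of 3 mice. No group therefore has a replicate, no test between groups was possible, and every interval below covers counting error only.

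Apolipoproteins are the proteins that sit on the surface of lipoprotein particles, which carry cholesterol and triglyceride through the blood. The liver makes most of them. They give particles their structure, serve as ligands for the receptors that clear them, and switch the plasma enzymes that unload or remodel their lipid on or off. Glucocorticoid excess is known to alter plasma lipids, and the comparison of genotypes asks whether the receptor in muscle bears on the response of other tissues.

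The libraries held 19394572 to 20940660 estimated counts, so that 3 counts, used here as the limit of detection, corresponded to 0.143 to 0.155 CPM (counts scaled to the library total). In gastrocnemius the targeted gene, Nr3c1, stood at 41.2% of the GRf/f level in GRmKO mice on vehicle and at 39.2% on CORT, whereas in liver it stood at 105% and 110%. In gonadal WAT Nr3c1 stood at 102% on vehicle and at 81.5% on CORT. The 15 hepatocyte markers were all present in the 4 liver libraries, with a summed level of 84966 to 144835 CPM, and the 6 skeletal muscle markers summed to at most 4.94 CPM there. A change was called when it reached 2-fold (1 on the log2 scale, with 0.5 CPM added to both levels), among entries above 0 in all 4 libraries of a tissue.

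Several members are neighbours in the genome. On chromosome 9 of the GRCm38 build, Apoa1 (chr9:46228580-46230466, plus strand), Apoc3 (chr9:46232933-46235636, minus strand), Apoa4 (chr9:46240696-46243459, plus strand) and Apoa5 (chr9:46268633-46271919, plus strand) lie within 43340 bases. On chromosome 7, Apoc1 (chr7:19689481-19692660) and Apoe (chr7:19696109-19699188) lie on the minus strand 3448 bases apart, in a cluster that also holds Apoc2 and Apoc4. Apoa2 (chr1:171225054-171226379), Apob (chr12:7977648-8016835), Apom (chr17:35128997-35132050) and Apoh (chr11:108343354-108414396) stand alone. Apoa4 and Apoa5 overlap annotated antisense genes. The Apoh gene record overlaps Prkca on the opposite strand, but its listed transcript starts further in, at chr11:108395293. Whether Prkca reaches that transcript was not examined. The sources used here do not say whether the counting used strand. Reads of the antisense genes therefore cannot be told apart from those of Apoa4 and Apoa5.

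The sequence upstream of 3 members of the chromosome 9 cluster is shown because this cluster holds the members called with CORT in liver, as the values that follow describe. Apoc3 is among those called, but it had no RefSeq window and its sequence is not shown. The stretches come from RefSeq promoter windows on GRCm38.p6, plus strand. Those of Apoa1 and Apoa4 end at the base before the gene start given above, and that of Apoa5 at the base before a RefSeq start that lies upstream of it. They are chr9:46228380-46228579 for Apoa1, chr9:46240594-46240695 for Apoa4 and chr9:46268358-46268607 for Apoa5. Capitals mark TGTTCT, which is the half-site of the glucocorticoid response element, or TATAAA, the core of the TATA box.
Apoa1: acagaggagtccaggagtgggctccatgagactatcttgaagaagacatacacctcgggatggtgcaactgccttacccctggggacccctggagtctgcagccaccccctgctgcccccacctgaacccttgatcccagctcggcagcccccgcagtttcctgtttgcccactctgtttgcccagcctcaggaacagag
Apoa4: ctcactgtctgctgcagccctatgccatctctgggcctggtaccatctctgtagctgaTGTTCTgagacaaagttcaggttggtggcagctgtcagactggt
Apoa5: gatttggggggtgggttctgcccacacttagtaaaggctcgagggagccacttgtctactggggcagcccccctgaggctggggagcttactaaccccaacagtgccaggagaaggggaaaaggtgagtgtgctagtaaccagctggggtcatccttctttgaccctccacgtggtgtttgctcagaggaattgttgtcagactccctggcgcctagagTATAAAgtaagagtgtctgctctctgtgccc
Motifs were searched on both strands in RefSeq windows of 8 of the 10 members. Apoc1 and Apoc3 had no window and were not searched. The full glucocorticoid response element, which holds the half-site and its reverse complement, matched in none of these windows and in 0.00913% of all 32851 RefSeq windows of 300 bases. Its half-site TGTTCT matched in 18.97% of all windows, and in those of Apoa4, Apoe, Apoh and Apom. The window of Apoa4 held 2 half-sites, of which the second lies past the stretch shown. TATAAA matched in 13.6% of all windows, and in those of Apoa2, Apoa5, Apob and Apoe, and the forkhead motif GTAAACA matched in 3.65%, and in those of Apoa2, Apoe and Apoh. The HNF4 motif, the C/EBP motif and the direct repeat of AGGTCA had no match in the members' windows. A match is a description of letters only. Of the members called in liver, Apoa4 held the half-site, Apoa1 did not, and Apoc3 was not searched. Apoe, Apoh and Apom held it and were not called in liver.

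In the liver, with CORT, Apoa4 and Apoc3 were higher in both genotypes and Apoa1 was lower in GRf/f mice past the 2-fold line, while the other 7 members stayed within it. Apoa4 showed the widest range of the 10 members over the 4 libraries and Apoc1 the narrowest. In GRf/f mice 3 of 10 members were thus called, against 11.6% of the 12485 entries tested, with 2 higher (5.9% of entries) and 1 lower (5.72%). In GRmKO mice 2 of 10 were called, against 5.61% of entries, both of them higher (2.8%). Neither genotype comparison called a member, on vehicle (2.3% of all entries were called) or on CORT (4.72%). The median log2 change of the members under CORT was -0.11 in GRf/f mice and 0.19 in GRmKO mice, against 0.00 and 0.05 over all entries tested.

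**Figure D1:**
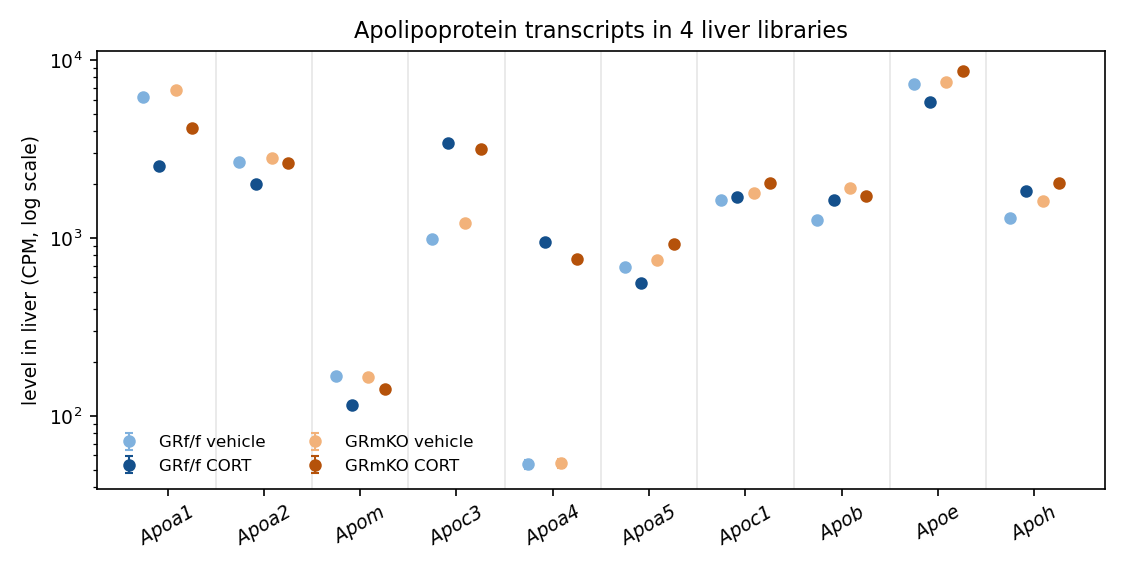
Level of each apolipoprotein transcript (CPM, log axis) in the 4 liver libraries, 1 point per library; 95% Wilson counting intervals are drawn but are mostly smaller than the points. The CORT libraries of both genotypes lie above both vehicle libraries for Apoa4 and Apoc3 and below them for Apoa1, Apoa2 and Apom.

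Apoa1, Apoa2 and Apom encode proteins carried mainly on high-density lipoprotein (HDL). Of these, Apoa1 was called lower with CORT in GRf/f mice and none was called in GRmKO mice, while Apoa4, whose protein is also found on HDL, was higher in both. Apoa1, which encodes the main structural protein of HDL and the activator of the plasma enzyme LCAT, stood at 6186 CPM in GRf/f mice on vehicle, 2554 on CORT, 6750 in GRmKO mice on vehicle and 4147 on CORT. Both CORT libraries thus lay below both vehicle libraries. The ratio of CORT to vehicle was 0.413 in GRf/f mice (95% interval 0.409 to 0.417), which passed the 2-fold line, and 0.614 in GRmKO mice (0.609 to 0.620), which did not. Under CORT, Apoa1 was 1.62-fold higher in GRmKO than in GRf/f liver, with a log2 difference of 0.70 that was not called.

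Apoa2, which encodes the second protein of HDL, followed the same order with smaller steps. It stood at 2671, 2002, 2819 and 2654 CPM in the GRf/f vehicle, GRf/f CORT, GRmKO vehicle and GRmKO CORT libraries. Its log2 changes with CORT were -0.42 and -0.09 in GRf/f and GRmKO mice, neither called. Apom, which encodes the carrier of sphingosine 1-phosphate on HDL, stood at 168, 116, 166 and 141 CPM in the same order, with log2 changes of -0.54 and -0.24 that were not called either. Per length of transcript, Apoa1 exceeded Apoa2 in both vehicle libraries, with ratios of 1.10 and 1.14, and fell below it in both CORT libraries, with ratios of 0.607 and 0.743.

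The members that act on lipoprotein lipase, the enzyme that unloads triglyceride from particles in capillaries, did not move as a group. Apoc3 encodes an inhibitor of the lipase and of remnant uptake. It stood at 988 and 1218 CPM in the GRf/f and GRmKO vehicle libraries and at 3406 and 3143 CPM in the matching CORT libraries. Both CORT libraries lay well above both vehicle libraries, with ratios of 3.45 (3.396 to 3.503) in GRf/f mice and 2.58 (2.54 to 2.62) in GRmKO mice, both called.

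Apoa4, whose protein rides on HDL and on triglyceride-rich particles and is mostly known as a product of the intestine, was the least abundant member per length on vehicle. It stood at 53.6 and 54.2 CPM in the GRf/f and GRmKO vehicle libraries, which agree within counting error, and at 952 and 757 CPM under CORT. The ratios were 17.7 (16.7 to 18.9) in GRf/f mice and 14.0 (13.1 to 14.9) in GRmKO mice. Of 6043 liver entries with a mean of at least 10 CPM, 0.827% had a wider log2 range over the 4 libraries than Apoa4, whose range was 4.14.

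Apoa5 encodes a protein that promotes lipase action and so opposes Apoc3 in plasma. It stood at 687 CPM in GRf/f mice on vehicle and 562 on CORT, and at 751 CPM in GRmKO mice on vehicle and 927 on CORT. The CORT library was the lowest of the 4 in GRf/f mice and the highest in GRmKO mice. The log2 changes of -0.29 and 0.30 were both within the 2-fold line. Apoc1, which encodes an inhibitor of lipase and receptor-mediated uptake, hardly differed between libraries, at 1632, 1707, 1797 and 2039 CPM in the GRf/f vehicle, GRf/f CORT, GRmKO vehicle and GRmKO CORT livers.

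The balance between neighbours on chromosome 9 therefore shifted with CORT in both genotypes. Per length of transcript, the ratio of Apoc3 to Apoa1 was 0.314 in GRf/f mice on vehicle and 2.62 on CORT, and 0.355 and 1.49 in GRmKO mice. By this measure Apoc3 ranked 5 among the 10 members in both vehicle libraries, 1 in GRf/f liver under CORT, with 26.2% of the summed level of the 10 members, and 2 in GRmKO liver under CORT, with 19.4%. Apoa1 ranked 2 in both vehicle libraries and 5 in both CORT libraries. The ratio of Apoa5 to Apoc3 was 0.158 and 0.140 in the GRf/f and GRmKO vehicle livers and 0.0376 and 0.0671 in the CORT livers.

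**Figure D2:**
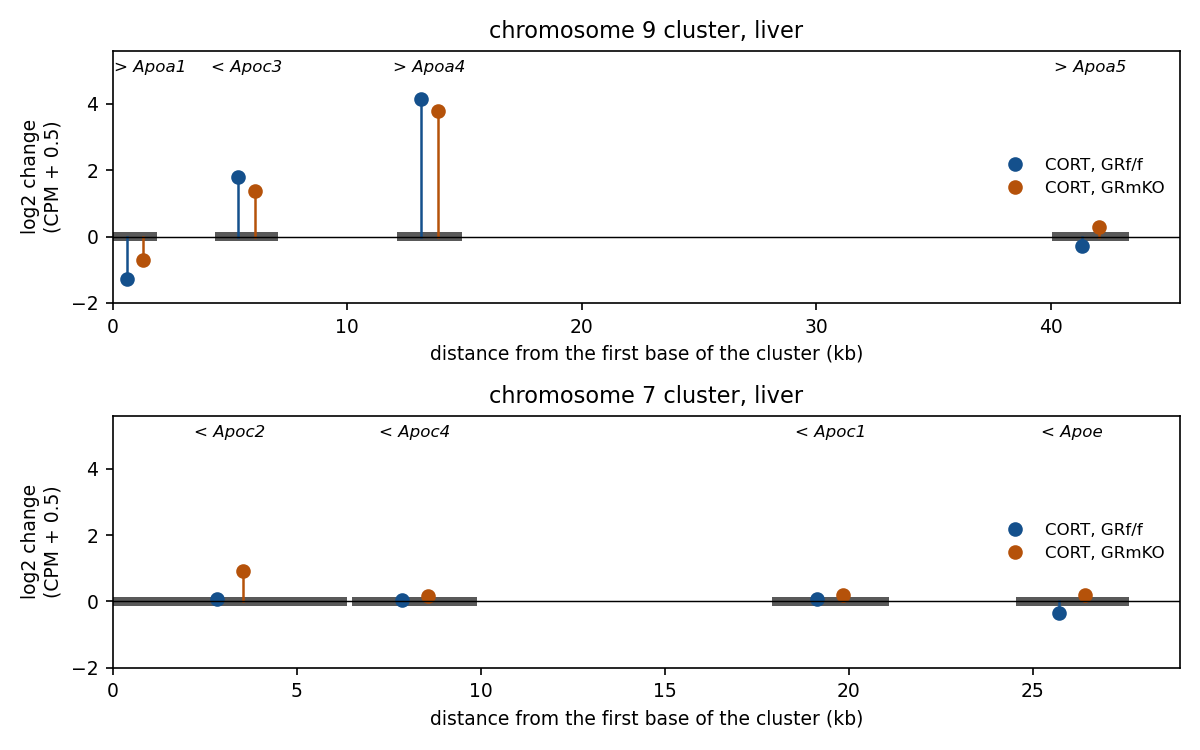
Log2 change with CORT in liver (vertical axis, 0.5 CPM added) for the genes of the chromosome 9 and chromosome 7 clusters, placed by distance in kb from the first base of each cluster; grey bars are the genes, > and < give their strand, and blue and orange points are GRf/f and GRmKO mice. Apoc3 and Apoa4 lie between Apoa1, which was lower, and Apoa5, which was within the 2-fold line, and no gene of the chromosome 7 cluster passed it.

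The ligands for clearance receptors stayed within the 2-fold line. Apob encodes the structural protein of very-low-density and low-density lipoprotein. It stood at 1263 CPM in the GRf/f vehicle liver, 1640 in GRf/f CORT, 1918 in GRmKO vehicle and 1721 in GRmKO CORT. The vehicle library of GRf/f mice was the low value, and Apob was the member with the largest genotype difference on vehicle, at 1.52-fold (1.49 to 1.54). Apoe, which encodes the ligand of the LDL receptor family on remnant particles, stood at 7371, 5781, 7513 and 8676 CPM in the same order. Its log2 changes with CORT were -0.35 in GRf/f and 0.21 in GRmKO mice, so the 2 genotypes moved to opposite sides of 0.

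Apoh encodes beta-2-glycoprotein I, a phospholipid-binding plasma protein found partly on lipoproteins. It stood at 1302, 1837, 1617 and 2026 CPM in the GRf/f vehicle, GRf/f CORT, GRmKO vehicle and GRmKO CORT livers. Both CORT libraries lay above both vehicle libraries, with ratios of 1.41 and 1.25 that were not called.

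**Figure D3:**
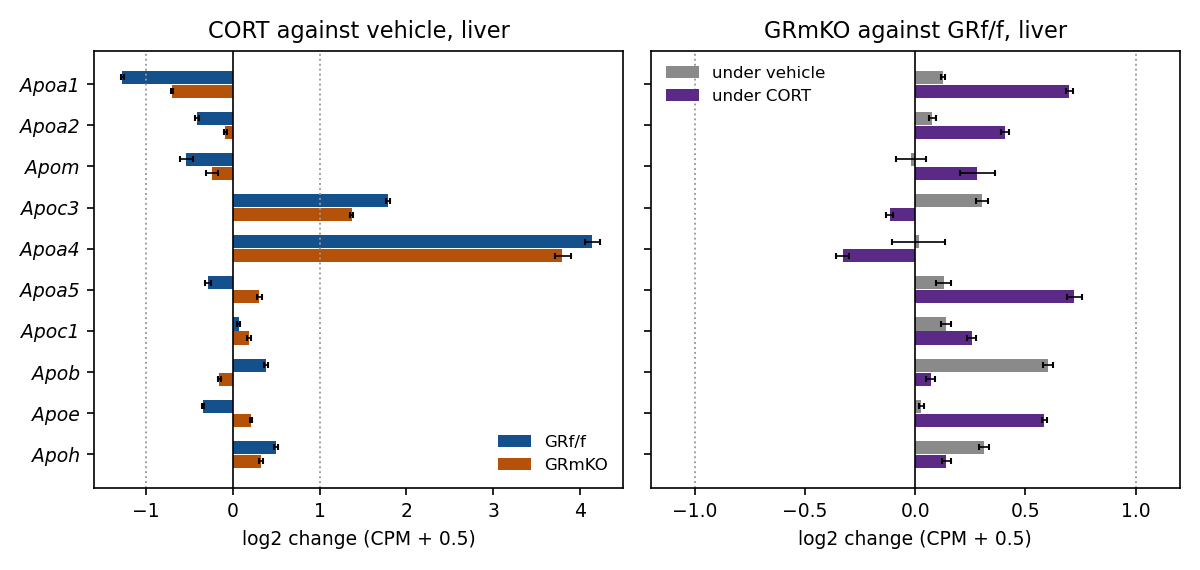
Log2 change (horizontal axis, 0.5 CPM added) of the 10 apolipoprotein transcripts in liver, with CORT in each genotype (left) and between genotypes under each treatment (right); black bars are 95% counting intervals and dotted lines mark the 2-fold threshold. Apoa4, Apoc3 and, in GRf/f mice, Apoa1 pass the threshold on the left, and no member passes it on the right.

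The size of the CORT response differed between genotypes by more than counting error for all 10 members, but no replicate exists to judge it against. The log2 change in GRmKO mice less that in GRf/f mice was 0.57 (0.55 to 0.59) for Apoa1, 0.59 for Apoa5, 0.56 for Apoe and 0.33 for Apoa2. It was -0.53 for Apob, -0.42 for Apoc3 and -0.35 for Apoa4. For Apoa1, Apoc3 and Apoa4 the change was in the same direction in both genotypes and smaller in GRmKO mice. The 2 CORT comparisons use different libraries, while each shares its CORT and vehicle libraries with the genotype comparisons.

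Cell type markers varied between the liver libraries. The 12 macrophage markers summed to 313 CPM in GRf/f mice on vehicle and 111 on CORT, and to 262 and 165 CPM in GRmKO mice, with 9 of 12 called lower in GRf/f mice and 2 of 12 in GRmKO mice. The 5 erythroid markers summed to 1020, 446, 663 and 1120 CPM in the GRf/f vehicle, GRf/f CORT, GRmKO vehicle and GRmKO CORT livers, with 4 of 5 called lower with CORT in GRf/f mice and 4 of 5 higher in GRmKO than in GRf/f mice under CORT. The 6 endothelial markers summed to 131, 73.7, 126 and 113 CPM in the same order, with 2 of 6 lower and 1 higher with CORT in GRf/f mice and none called in GRmKO mice. Of the 15 hepatocyte markers, Fabp1, a fatty acid binding protein, was called lower in both genotypes, and the other 14 were not called. In pooled tissue, fewer cells of a type and less RNA per cell cannot be told apart. Macrophages also make Apoe and Apoc1. The part of these cell types in the members' values was not tested.

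The partners of the apolipoproteins were followed as lists in liver. Their counts stand against 11.6% of all entries called with CORT in GRf/f mice and 5.61% in GRmKO mice, and a single call in a list of 8 to 15 genes is near those shares. The median log2 changes in GRf/f and GRmKO mice were -0.04 and 0.11 for the other apolipoproteins, 0.30 and 0.18 for lipoprotein assembly, 0.10 and -0.04 for the lipases and -0.21 and -0.11 for the transcription factors, against 0.00 and 0.05 over all entries tested. Among 8 of 9 other apolipoproteins that could be tested, the 3 serum amyloid A genes, whose proteins ride on HDL, were lower with CORT in GRf/f mice. Saa1 was at 82.2 and 6.86 CPM on vehicle and CORT, a log2 change of -3.49, with -2.01 for Saa2 and -1.11 for Saa4. In GRmKO mice Saa1 alone was called, with a log2 change of -1.97. On vehicle, Saa1 and Saa2 were lower in GRmKO than in GRf/f liver by log2 differences of -1.63 and -1.604.

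Of the 10 genes of lipoprotein assembly, 2 were higher and 1 lower with CORT in GRf/f mice, and 1 was higher in GRmKO mice. Tm6sf2, which is needed to load very-low-density lipoprotein with lipid, rose from 16.2 to 51.7 CPM in GRf/f and from 23.6 to 49.7 CPM in GRmKO liver. Mttp, the transfer protein that lipidates apolipoprotein B, rose from 225 to 532 CPM in GRf/f liver. Apobec1, the enzyme that edits Apob mRNA, stood at 9.23 and 4.24 CPM there, a log2 change of -1.04.

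Of the 12 lipases and their regulators, 2 were higher and 3 lower with CORT in GRf/f mice, and 2 were lower in GRmKO mice. Lipg, the endothelial lipase, had log2 changes of -2.71 and -1.05 and Lpl, lipoprotein lipase itself, of -1.92 and -1.85 in GRf/f and GRmKO mice. Pltp, the phospholipid transfer protein, had a log2 change of -1.68 in GRf/f mice. Angptl8, an insulin-responsive regulator of the lipase, was at 14.9 CPM in GRf/f mice on vehicle and 82.7 on CORT, and at 117 CPM in GRmKO mice on vehicle, a log2 genotype difference of 2.93. Lipg was higher in GRmKO than in GRf/f liver under CORT by a log2 difference of 2.28.

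Of the 10 receptors and transporters reported, 1 was lower with CORT in each genotype and none differed past 2-fold between genotypes. Sort1, a sorting receptor for apolipoprotein B, had log2 changes of -3.40 in GRf/f and -2.69 in GRmKO mice, and was low, at no more than 17.6 CPM in any liver library. Of the 15 transcription factors, 1 was higher and 3 lower in GRf/f mice and 1 lower in GRmKO mice. Ppara, the fatty acid sensor, had a log2 change of -1.29 and Mlxipl, the carbohydrate-responsive factor, of 1.18 in GRf/f mice. Foxa3 had log2 changes of -1.06 and -1.02 in GRf/f and GRmKO mice, and Nr0b2, a repressor induced by bile acids, of -1.05 in GRf/f mice. Under CORT, Nr0b2 was higher and Mlxipl lower in GRmKO than in GRf/f liver, by log2 differences of 1.58 and -1.02.

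The liver entries whose pattern over the 4 libraries was closest to that of Apoa4 were Celsr1, Cyp4a14, Cyp2a22, Fam107a and Slc17a8. Closeness was the Euclidean distance between the 4 centred log2 levels, which ran from 0.69 for Celsr1 to 1.00 for Slc17a8, among 6042 entries compared. Cyp4a14, a fatty acid omega-hydroxylase, stood at 131 and 1869 CPM in GRf/f mice on vehicle and CORT and at 253 and 2052 CPM in GRmKO mice. With 4 libraries, these are descriptions of resemblance only.

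In gastrocnemius the level of each member was lower in GRf/f than in GRmKO mice under both treatments. For Apoa4 and Apom on vehicle, the counting interval of the ratio did not exclude equal levels. The number of members above the limit of detection was 5 and 4 in GRf/f mice on vehicle and CORT and 8 and 10 in GRmKO mice. Only Apoa1, Apoa5, Apoc1, Apoe and Apoh were above 0 in all 4 libraries and could be tested. The other 5 members were at 0 in at least 1 library. Of the 5 tested, all but Apoe were called higher in GRmKO than in GRf/f muscle, both on vehicle, where 7.77% of 13543 entries were called and 4.59% were higher, and on CORT, where 9.71% were called and 4.4% were higher. With CORT, Apoa1 was called lower in GRf/f mice (7.97% of entries called, 4.72% lower) and Apoc1 and Apoh higher in GRmKO mice (6.53% called, 1.51% higher). With 5 CPM added in place of 0.5, the calls with CORT were lost, and those between genotypes that remained were Apoa1 on vehicle and Apoa1 and Apoc1 on CORT.

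Levels were small throughout. Apoa1 stood at 0.657 and 0.0517 CPM in GRf/f muscle on vehicle and CORT and at 6.46 and 9.28 CPM in GRmKO muscle. The second of these values is about 1 count, so the ratio of CORT to vehicle in GRf/f mice, 0.0787, has an interval of 0.00185 to 0.524. Apoa2 was at 0 in both GRf/f libraries and at 4.13 and 8.76 CPM in GRmKO mice on vehicle and CORT, which is at least 27.3-fold and 56.6-fold higher, taken against 3 counts in the GRf/f library. The other triglyceride-related members were likewise near 0 in GRf/f mice. Apoa4 was at 0 in both GRf/f libraries, at about 2 counts in GRmKO mice on vehicle and at 1.78 CPM on CORT. Apoc3 stood at 0, 0.315, 0.937 and 9.57 CPM in the GRf/f vehicle, GRf/f CORT, GRmKO vehicle and GRmKO CORT libraries. Apob stood at 0.295, 0, 1.23 and 3.96 CPM in the same order.

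The GRmKO CORT library was the highest of the 4 muscle libraries for all members but Apoe. Apoa5 stood at 0.151, 0.0642, 1.15 and 1.82 CPM, Apoh at 0.303, 0.568, 1.54 and 4.89 CPM and Apom at 0.0506, 0, 0.149 and 0.393 CPM in the GRf/f vehicle, GRf/f CORT, GRmKO vehicle and GRmKO CORT libraries. Apom passed the limit of detection in the last library only.

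Hepatocyte and erythroid transcripts moved with these values. The 15 hepatocyte markers summed to 36.8 and 31.98 CPM in GRf/f muscle on vehicle and CORT and to 119 and 288 CPM in GRmKO muscle. F2, the prothrombin transcript, was at 0 in both GRf/f libraries, and Vtn, at 28.5 and 21.3 CPM, made up most of the GRf/f sums. Of 12 hepatocyte markers tested, 11 were called higher in GRmKO muscle under each treatment. The 5 erythroid markers summed to 799 and 774 CPM in GRf/f muscle and to 1332 and 2477 CPM in GRmKO muscle, with 2 of 5 called higher in GRmKO mice on vehicle and 5 of 5 on CORT. Expressed as a share of the liver level in the same group, the 8 members other than Apoe and Apoc1 had a median of 0.0163% and 0.00101% in GRf/f mice on vehicle and CORT and of 0.0954% and 0.238% in GRmKO mice. The 14 hepatocyte markers with the same retained transcript in both tissues had medians of 0.0105%, 0.00787%, 0.0780% and 0.226% in the same order. In the GRmKO CORT library the 8 members lay between 0.196% and 0.330%, within the range of the hepatocyte markers, 0.128% to 0.896%. The part of liver RNA, or of blood, in the muscle values was not tested.

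**Figure D4:**
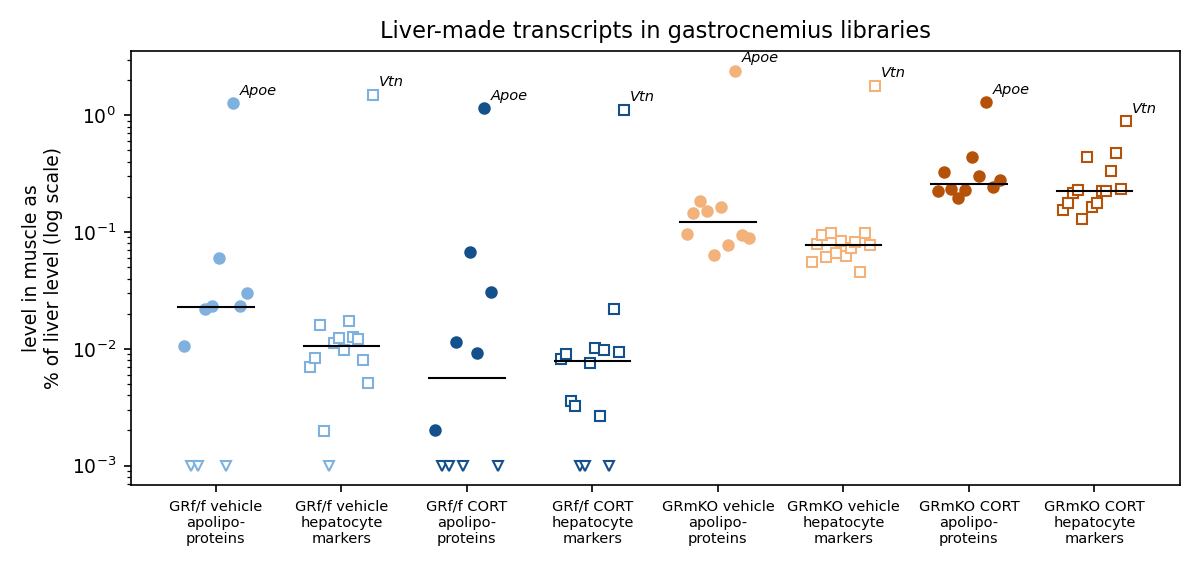
Level in gastrocnemius as a percentage of the liver level of the same group (log axis) for the 10 apolipoproteins (filled circles) and 14 hepatocyte markers (open squares) in each muscle library; black lines are medians and open triangles at the bottom edge stand for transcripts at 0. In the GRmKO CORT library the members other than Apoe sit among the hepatocyte markers, and Apoe lies above 1% in all 4.

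Apoe stood apart from the other members in muscle. Apoe, which macrophages and other resident cells also make, stood at 93.7 and 66.5 CPM in GRf/f muscle on vehicle and CORT and at 182 and 113 CPM in GRmKO muscle. That was 1.15% to 2.42% of its liver level, above every other member in each library. The log2 genotype differences of Apoe were 0.95 on vehicle and 0.76 on CORT, neither called. The 12 macrophage markers summed to 180, 180, 566 and 229 CPM in the GRf/f vehicle, GRf/f CORT, GRmKO vehicle and GRmKO CORT libraries, so the library with the most Apoe also had the most macrophage transcripts. Apoc1 stood at 0.974, 1.15, 2.92 and 9.03 CPM in the same order, and was highest where the hepatocyte sum was highest, as were the members other than Apoe. The part of either cell type was not tested.

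In gonadal WAT, Apoe was the abundant member and was lower with CORT in both genotypes. It stood at 2060 and 803 CPM in GRf/f fat on vehicle and CORT and at 1953 and 910 CPM in GRmKO fat. Both CORT libraries were below both vehicle libraries, with log2 changes of -1.36 and -1.10, both called, and the genotypes differed by no more than 0.18 on the log2 scale. The call in GRmKO mice was lost with TMM or median-of-ratios scaling, which moved the median of all entries there by 0.123 and 0.127. Apoe reached 10.5% to 28.0% of its liver level there. Apoc1, its neighbour on chromosome 7, stood at 85.3 and 29.9 CPM in GRf/f mice and at 52.5 and 39.0 CPM in GRmKO mice, with log2 changes of -1.498, which was called, and -0.42, which was not.

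Of the 8 members that could be tested in fat, 4 were called with CORT in GRf/f mice, against 13.6% of 14218 entries. Apoa4, Apoc1 and Apoe were lower (8.07% of entries) and Apoc3 was higher (5.49%). In GRmKO mice 3 were called, against 9.1%, with Apoe lower (5.63%) and Apoc3 and Apoh higher (3.47%). Between genotypes, Apoa4 was called lower in GRmKO fat on vehicle (2.22% of entries called, 1.15% lower), and Apoa1 and Apoh higher on CORT (2.62% called, 1.43% higher). Apart from Apoe and Apoc1, no member exceeded 7.54 CPM in any WAT library, the level of Apoc3 in GRmKO mice on CORT. With 5 CPM added, the calls that remained were Apoe in both genotypes and Apoc1 in GRf/f mice, all lower with CORT.

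The low members of WAT were as follows. Apoc3 stood at 1.90 and 4.32 CPM in GRf/f mice on vehicle and CORT and at 1.57 and 7.54 CPM in GRmKO mice, so both CORT libraries lay above both vehicle libraries, as in liver. Apoa4 stood at 1.15, 0.201, 0.253 and 0.248 CPM in the GRf/f vehicle, GRf/f CORT, GRmKO vehicle and GRmKO CORT libraries, and the GRf/f vehicle library was the odd value. Apoa1 stood at 2.004, 1.56, 2.08 and 3.77 CPM and Apoh at 0.551, 0.452, 0.609 and 1.78 CPM in that order, and both were highest in the GRmKO CORT library. Apoa2 stood at 1.12, 1.90, 0.751 and 1.92 CPM, higher in both CORT libraries than in both vehicle libraries, with log2 changes of 0.57 and 0.95 that were not called. Apoa5 and Apom did not exceed 0.396 CPM. Apob was at 0 in both GRf/f libraries and at 1.29 and 1.95 CPM in GRmKO mice, counted on another transcript than in liver and muscle. The hepatocyte markers summed to 87.1, 69.4, 95.2 and 125 CPM in the same order, and the erythroid markers to 4375, 2155, 4441 and 5674 CPM. Both sums were highest in the GRmKO CORT library, and their part in these values was not tested.

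The macrophage sum in WAT ran against Apoe. It was 1173 CPM in GRf/f fat on vehicle and 2622 on CORT, and 1420 and 2573 CPM in GRmKO fat, with a log2 change above 0 for all 11 markers tested in both genotypes, 6 of them called higher in GRf/f and 2 in GRmKO mice. The 7 adipocyte markers summed to 28217 and 24437 CPM in GRf/f fat and to 30243 and 24320 CPM in GRmKO fat, and the 6 endothelial markers to 551 and 214 CPM and to 509 and 289 CPM. With CORT, 1 adipocyte marker was called higher and 1 lower in each genotype. Of 4 endothelial markers tested, 3 were called lower in GRf/f mice and none in GRmKO mice. The part of these cell types in the values of Apoe was not tested.

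**Figure D5:**
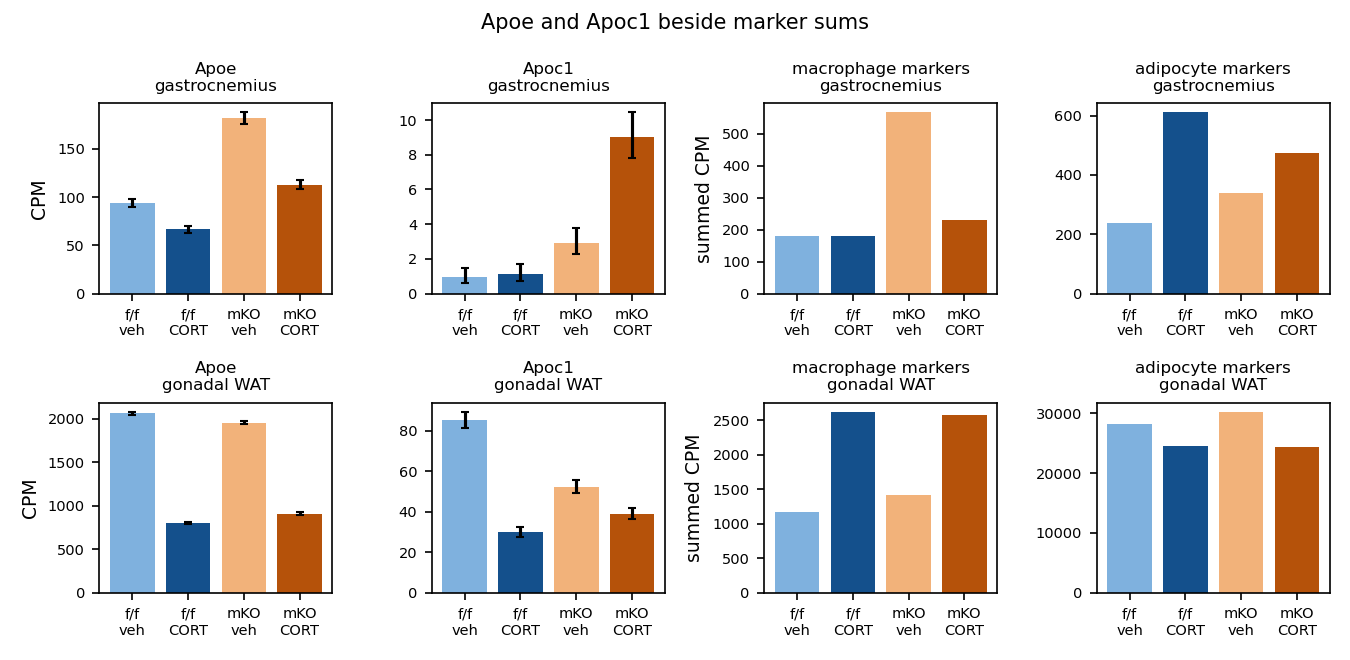
Level of Apoe and Apoc1 (CPM, bars with 95% Wilson counting intervals) and summed CPM of macrophage and adipocyte markers in the 4 gastrocnemius (top) and 4 gonadal WAT (bottom) libraries, with f/f for GRf/f, mKO for GRmKO and veh for vehicle. In WAT the CORT libraries are low for Apoe and Apoc1 and high for the macrophage markers, and in muscle the GRmKO vehicle library is highest for both Apoe and the macrophage markers.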

How the data were processed

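Per the study's methods, the authors ran paired 100-base sequencing on a DNBSEQ-G400, used Salmon 1.2.1 against GENCODE M20 protein-coding transcripts (GRCm38) and summarised its output with tximport in R 3.5.0. The deposited values are estimated counts (lengthScaledTPM). Duplicate gene names had been reduced to the largest entry, each with 1 transcript ID. Levels were divided by library totals to give CPM, and by the GENCODE M21 length of the listed transcript where members are compared with each other. Whether a value is that transcript's or the gene's sum is not stated, which can affect the comparison between genes. Changes are log2 ratios with 0.5 CPM added, called at 2-fold. Ratio intervals are exact binomial (Clopper-Pearson) and level intervals Wilson, both 95%, computed in Python 3.11.15 (scipy 1.17.1) with counts rounded, and the steps were tested on simulated data. Alternatives were pseudocounts, filters, thresholds, TMM (edgeR 4.0.16) and median-of-ratios scaling, and the NOISeq simulation that the authors used. Partner genes past 2-fold in a liver comparison are named, at most 4 per list and comparison, largest first. The members, lists and rules were chosen with earlier results of these data known. A result for 1 partner gene is not reported here.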

Additional observations from a re-analysis of the deposited data

Results flagged for a closer look

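For 3 members the CORT change in liver lay on opposite sides of 0 in the 2 genotypes, with a counting interval that excluded 0 in each, a difference that was not tested because each group is 1 library. The log2 change in GRmKO mice less that in GRf/f mice was 0.59 for Apoa5 and 0.56 for Apoe, each below 0 in GRf/f and above 0 in GRmKO mice, and -0.53 for Apob, above 0 in GRf/f and below 0 in GRmKO mice. No change of these 3 members reached 2-fold in either genotype. In gastrocnemius the same held for Apoa1, with a difference of 1.56, where the GRf/f CORT library holds about 1 count. The other members tested with opposite signs had an interval that included 0 in at least 1 genotype. They were Apoa5 in gastrocnemius, with log2 changes of -0.21 in GRf/f and 0.49 in GRmKO mice, and, in gonadal WAT, Apoa1 with -0.28 and 0.73 and Apoh with -0.14 and 1.04.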

How the results depend on the processing

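The liver calls with CORT were the same members under all 9 alternatives in GRf/f mice, and in GRmKO mice under all but the 1.5-fold threshold, which added Apoa1. No call changed direction in any tissue. With a threshold of 1.5-fold, 1 member passed between genotypes in liver on vehicle (Apob, against 9.92% of entries) and 3 on CORT (Apoa1, Apoa5 and Apoe, against 16.5%), in place of 0. Counts in muscle and fat rested on low levels and moved more. With a pseudocount of 5 CPM in place of 0.5, the muscle counts were 0 with CORT in GRf/f mice, 0 with CORT in GRmKO mice, 1 between genotypes on vehicle and 2 on CORT, and the WAT counts were 2, 1, 0 and 0 in the same order. With no filter on zeros, the muscle counts were 5 with CORT in GRmKO mice, 7 between genotypes on vehicle and 8 on CORT, and WAT gave 2 between genotypes on vehicle. With a filter on a mean of 10 counts the same muscle counts were 4, 7 and 7. Apoa2, Apob and Apoc3, which both of these rules add, were at 0 counts in a GRf/f library. They reach a mean of 10 counts only through the GRmKO libraries where they are high, so their calls follow in part from the filter. With a threshold of 1.5-fold, WAT gave 5 with CORT in GRmKO mice and 2 between genotypes on vehicle. The NOISeq simulation gave 0, 0, 1 and 2 calls in muscle and 2, 1, 0 and 0 in WAT. The share of all entries called also moved with the rule. In GRf/f liver with CORT it was 11.6% in the main setting, 4.16% with 5 CPM, 27.2% at 1.5-fold and 4.9% by NOISeq. The muscle and WAT shares under these rules are not given here, so those counts cannot be judged against them. Scaling by TMM or median-of-ratios factors moved the median of all entries by over 0.1 on the log2 scale in 3 comparisons. The shift was at most 0.107 in muscle with CORT in GRf/f mice, 0.149 in muscle with CORT in GRmKO mice and 0.127 in WAT with CORT in GRmKO mice. No count moved by more than 1.5 times under these scalings. In WAT with CORT in GRmKO mice, however, TMM scaling changed the members called, since Apoe, lower, was lost and Apoa2, higher, was gained. No paired analysis was possible because each group is 1 library, and for the same reason no library could be left out. Depth limits detection to 3 counts, and differences between pools of mice cannot be judged from these data.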
